A study of Homo sapiens with 12 samples.

Results

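The mRNAs described here encode 10 genes of the NF-kB pathway: the subunits RELA, RELB, NFKB1 and NFKB2, the inhibitors NFKBIA and TNFAIP3, and the cytokines IL1A, IL1B, CXCL8 and CXCL1. They were taken as a named list, matched by Ensembl identifier, from the 56632 genes of each deposited table. All 10 passed the filter on low counts, among 16275 genes tested. RNA came from MCF10A, an established human line of breast epithelium that does not form tumours, either wild type (WT) or with CBFB deleted by CRISPR-Cas9 (CBFB_KO). CBFB is the non-DNA-binding partner of the RUNX transcription factors, and the study also places it on mRNAs in the cytoplasm, with RELA among the transcripts it names as bound. Both genotypes were grown with horse serum, EGF, insulin, hydrocortisone and cholera toxin, and both were held in cycloheximide at 100 µg/ml for 30 min before lysis. Lysates were spread on sucrose gradients, and RNA was sequenced from 3 fractions: RNA free of ribosomes, RNA on single ribosomes (mono) and RNA of the combined polyribosomes (poly). The labels name a TruSeq mRNA kit, a type that selects poly-A RNA, whereas the general RNA-seq methods of the study describe removal of rRNA, so how mRNA was selected is unclear. There were 2 libraries for each of the 6 conditions, 12 in all, and every mean below has n = 2. The study picked knockout cells as colonies of 1 cell, and the labels do not say which colony was used or whether replicates were separate cultures, so p-values measure only the spread between these libraries.

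NF-kB is a family of dimeric transcription factors that wait in the cytoplasm bound to inhibitors of the IkB class. Signals from TNF, interleukin-1 or Toll-like receptors activate the IKK kinases, the inhibitor is degraded, and the dimer enters the nucleus and binds kappaB sites. Its targets include cytokines, and also its own subunits and inhibitors, which closes a feedback loop. Many of these target mRNAs are short-lived because proteins bind AU-rich elements in their 3′ untranslated regions (3′ UTRs), and such mRNAs are known to accumulate when cycloheximide blocks translation. Mammary basal epithelial cells make these cytokines themselves.

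Among the 10 members, AU-rich elements were densest in the 3′ UTRs of IL1B, CXCL8 and CXCL1. Per kb they were sparser in the cytokine IL1A than in NFKB2 and NFKBIA, and they were absent from RELA and RELB. In 1 annotated transcript per gene (GENCODE release 29), the pentamer ATTTA, searched on the transcript strand with overlaps counted, occurred in 8 of the 10 3′ UTRs, against 71.0% of 12316 tested genes with a 3′ UTR. Its density was 9.84 per kb in IL1B, 7.19 per kb in CXCL8 and 7.08 per kb in CXCL1, and 3.29% of the 12316 genes exceeded 7 per kb. IL1A had 4.34 per kb, NFKB1 4.24, NFKBIA 5.98, NFKB2 6.76 and TNFAIP3 2.51, against a median of 1.63 per kb over those genes. The density of NFKB2 is 1 pentamer in 148 bases, against 5 in 1152 bases for IL1A and 3 in 502 bases for NFKBIA. Of genes with a 3′ UTR of similar length, 21.1% had as many pentamers as NFKB2, 18.0% as many as IL1A and 10.9% as many as NFKBIA. The extended form, ATTTA with TT added on both sides, was found 3 times in CXCL1, 2 times in IL1B, 1 time in CXCL8 and 1 time in TNFAIP3, and in 8.69% of all genes. The windows below are 30 bases of 3′ UTR exon with the pentamers in capitals, shown because the 4 cytokine mRNAs carry them and RELA and RELB do not. The windows of RELA and RELB show the longest run of C in capitals, since the study ties CBFB to mRNA through hnRNPK, which binds poly-C. A run of 5 or more C was found in 5 of the 10 members and in 54.8% of all genes.
CXCL8: cctATTTAttATTTAtgtATTTATTTAagc
CXCL1: aagtcttctATTTATTTATTTAttcattag
IL1B: cgcttccctATTTATTTATTTAtttgtttg
IL1A: tATTTAtatatgtATTTAtaaatatATTTA
RELA: tgtgttccaactgCCCCCaactttgtggat
RELB: aggatgtctagcaCCCCCatccccttggcc

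**Figure D1:**
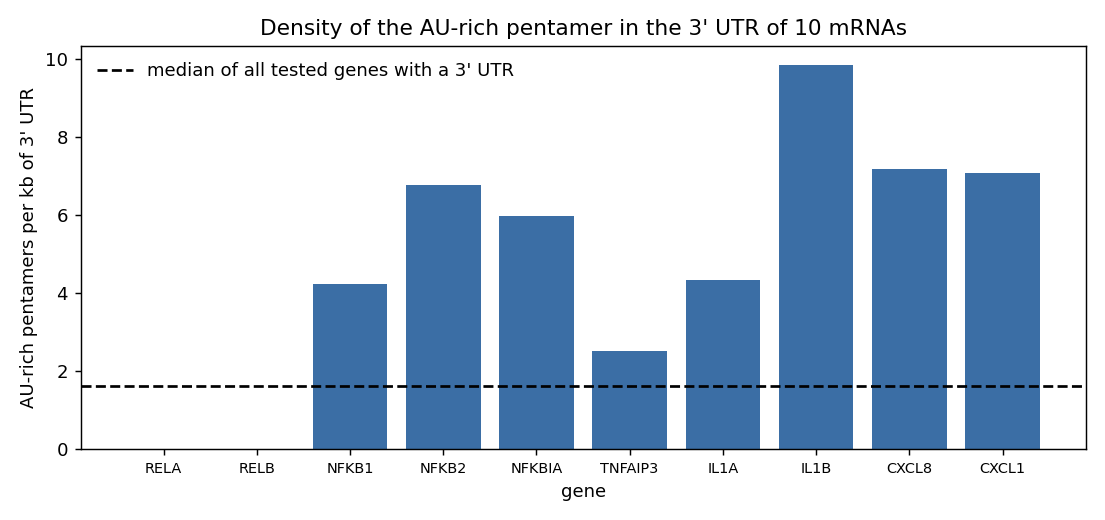
Density of the AU-rich pentamer in the 3′ UTR of each mRNA, in pentamers per kb (bars), with the median of 12316 tested genes as a dashed line at 1.63. IL1B is highest at 9.84, and RELA and RELB are at 0.

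Positions below are of the annotated transcripts on GRCh38, while the deposited files were made on hg19. CXCL8 (ENSG00000169429, chr4:73740506-73743716, plus strand) and CXCL1 (ENSG00000163739, chr4:73869404-73871242, plus strand) sit in the chemokine cluster of chromosome 4. NFKB1 (ENSG00000109320, chr4:102501329-102617302, plus strand) lies farther along the same chromosome. IL1A (ENSG00000115008, chr2:112773915-112784590) and IL1B (ENSG00000125538, chr2:112829751-112836903) are neighbours on the minus strand of chromosome 2. RELA (ENSG00000173039) is at chr11:65653596-65663094 on the minus strand, and RELB (ENSG00000104856) is at chr19:45001430-45038194 on the plus strand. NFKB2 (ENSG00000077150) is at chr10:102394597-102402524 on the plus strand. NFKBIA (ENSG00000100906) is at chr14:35401511-35404746 on the minus strand, and TNFAIP3 (ENSG00000118503) is at chr6:137867188-137883311 on the plus strand.

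Some of the promoters hold the letters of a kappaB site. RefSeq promoters of GRCh38.p14, 250 bases before to 50 after each start, were held for 9 members, some with several starts. A match to the kappaB consensus on either strand was found in 6 of their 14 promoters, in 5 genes, and in 11.3% of all 35116 promoters. The consensus was GGGRNNYYCC, where R is A or G, Y is C or T and N is any base, and looser forms were not counted. CXCL8 had no match, although its promoter holds tggaatttcc, which departs from the consensus in its first letter alone. The windows are 30 bases read on the gene's strand with the first match, and any match that overlaps it, in capitals. They lie at chr4:102501300-102501329 for NFKB1, chr10:102394461-102394490 for NFKB2, chr14:35404811-35404840 for NFKBIA, chr6:137867182-137867211 for TNFAIP3 and chr4:73869304-73869333 for CXCL1.
NFKB1: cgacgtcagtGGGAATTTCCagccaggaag
NFKB2: gaaacgtcatGGGAATTCCCCcctccgggg
NFKBIA: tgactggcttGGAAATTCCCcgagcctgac
TNFAIP3: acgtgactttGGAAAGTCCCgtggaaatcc
CXCL1: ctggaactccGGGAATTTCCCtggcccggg
A match describes letters and was not tested as a binding site, and RNA from gradient fractions does not measure promoter use.

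The libraries held 41050325 to 63886726 counts, and both CBFB_KO free libraries stood apart from the others. Mitochondrially encoded RNA took 71.56% and 87.22% of their counts, against 11.1% and 20.81% in WT free and 1.26% to 8.08% elsewhere. This left 13568143 and 5247878 counts on other genes, against 43279862 or more in the other 10 libraries. The members rest on correspondingly few counts there: CXCL8 had 26 and 4, CXCL1 75 and 13, RELB 69 and 10. The CBFB_KO poly pair was also unusual, since its mean chi-square per gene was 2.26, against 128 to 957 for the other pairs and near 1 for sampling noise. The 2 libraries of this pair were kept as separate samples, and calls on members that end when the pair is counted as 1 sample are given below. CBFB mRNA itself had levels of 2.17 and 5.10 in WT free, 4.58 and 5.68 in CBFB_KO free, 2.31 and 2.76 in WT poly, and 1.45 and 1.62 in CBFB_KO poly. It did not pass the test in any fraction (log2 change -0.72 ± 0.43 SE in poly, adjusted p = 1.0), and as an edit can leave the mRNA in place, its level does not check the labels.

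Markers of basal epithelium were present. All 8 of them reached at least 1 TPM in some library, and KRT5 ranged from 83.9 to 2100 TPM. Of 7 leukocyte markers 6 were above 0, PTPRC was 0 in all 12 libraries, and LYZ and CD3E did not exceed 0.04 TPM, whereas CD14 reached 26.3 TPM and CD68 6.37 TPM. Fibroblast markers summed to 0.07 to 2.95 TPM, with 3 of 5 above 0, and COL1A2 and COL3A1 at 0. Of the 2 endothelial markers matched, CDH5 was at 0 and VWF did not exceed 0.03 TPM. All samples are bulk RNA, so less RNA per cell and fewer cells making it cannot be told apart.

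Levels below are TMM-scaled CPM (counts relative to library size) per kilobase of effective length, which allow genes to be compared. They place an mRNA relative to the other mRNAs of its library, and how much RNA each fraction held is not given in the sources used here, so ratios between fractions are relative. The plot of levels by library shows the wide range within the pathway. In WT poly the order of mean levels was NFKBIA 59.7, RELA 27.0, NFKB2 7.90, NFKB1 5.36, RELB 4.23, CXCL1 2.48, IL1B 0.675, CXCL8 0.640, IL1A 0.420 and TNFAIP3 0.195. Neighbours in this order had separate libraries, except that NFKB1 overlapped RELB and IL1B overlapped CXCL8. The inhibitor NFKBIA and the subunit RELA held the top 2 places in every condition, and RELA came above NFKBIA in CBFB_KO free alone, where the mean levels were 79.9 and 13.9. TNFAIP3 came last in all 6 conditions.

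**Figure D2:**
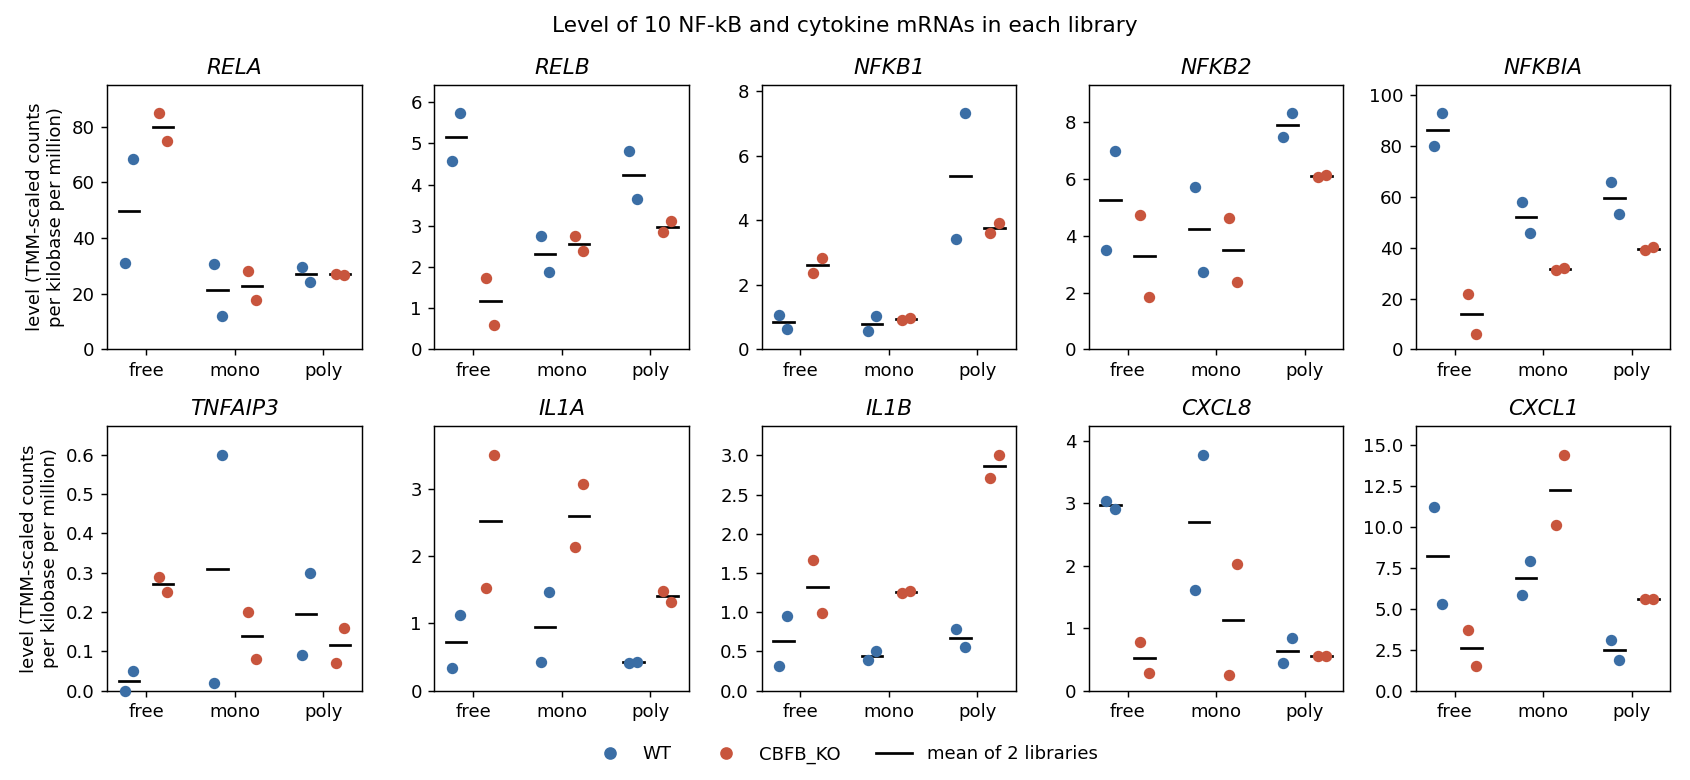
Level of each mRNA (y axis, TMM-scaled CPM per kilobase, linear from 0) in the free, mono and poly fractions. Points are single libraries, WT blue and CBFB_KO red, and black lines are means of 2 libraries. NFKBIA is low in CBFB_KO free, at 21.9 and 5.99, and IL1B is high in CBFB_KO poly, at 2.71 and 3.01.

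Among the subunits, RELA carries the main transactivation domain of the classical dimer. Its level was 31.2 and 68.2 in WT free, 30.5 and 12 in WT mono, and 29.6 and 24.3 in WT poly. In CBFB_KO it was 84.8 and 75.0 in free, 28.2 and 17.7 in mono, and 27.2 and 26.9 in poly. The 2 WT free libraries differed more from each other than the WT and CBFB_KO poly libraries did, and CBFB_KO free lay above both of them. With library size alone as the scaling, the change in free was -1.0 on the log2 scale, where the median of all genes was -1.57. RELB, the transactivating subunit of the alternative pathway, had levels of 4.56 and 5.73 in WT free and of 1.74 and 0.60 in CBFB_KO free. In poly RELB was at 4.82 and 3.64 in WT and at 2.85 and 3.11 in CBFB_KO, and in mono at 2.76 and 1.89 in WT and at 2.74 and 2.39 in CBFB_KO. The genotypes were apart in free and in poly, and overlapped in mono.

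NFKB1 encodes p105, the precursor of the DNA-binding subunit p50. Its level was 1.07 and 0.63 in WT free, 0.57 and 1.03 in WT mono, and 3.41 and 7.31 in WT poly. In CBFB_KO it was 2.36 and 2.84 in free, 0.92 and 0.96 in mono, and 3.61 and 3.90 in poly. Poly lay above free in both genotypes, but free was higher in CBFB_KO and the WT poly libraries spanned a wide range. With library size alone the change in free was -0.10 on the log2 scale, where the median of all genes was -1.57. NFKB2 encodes p100, the precursor of p52 and an inhibitor in its own right. Its level was 3.52 and 7.0 in WT free, 5.73 and 2.74 in WT mono, and 7.48 and 8.32 in WT poly. In CBFB_KO it was 4.73 and 1.85 in free, 4.62 and 2.36 in mono, and 6.09 and 6.13 in poly. Poly exceeded free in both genotypes, and the genotypes overlapped in free and were apart in poly.

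NFKBIA encodes IkB alpha, which holds RELA dimers in the cytoplasm and is resynthesized soon after NF-kB is activated. Its level was 80.1 and 92.9 in WT free, 58.0 and 45.9 in WT mono, and 66.0 and 53.4 in WT poly. In CBFB_KO it was 21.9 and 5.99 in free, 31.1 and 31.9 in mono, and 39.1 and 40.2 in poly. The CBFB_KO libraries lay below WT in every fraction, most of all in free. TNFAIP3 encodes A20, a ubiquitin-editing enzyme that shuts off signalling upstream of IKK. Its counts were 0 and 13 in WT free, 5 and 102 in WT mono, 35 and 101 in WT poly, 25 and 9 in CBFB_KO free, 39 and 10 in CBFB_KO mono, and 20 and 49 in CBFB_KO poly. As levels these are 0 and 0.05 in WT free, 0.02 and 0.60 in WT mono, 0.09 and 0.30 in WT poly, 0.29 and 0.25 in CBFB_KO free, 0.20 and 0.08 in CBFB_KO mono, and 0.07 and 0.16 in CBFB_KO poly. At this depth no ordering of its fractions or genotypes could be read, and its fitted changes against WT free rest on 0 and 13 counts. Without WT replicate 2 only the library at 0 is left in WT free, and the fitted changes then depend on the prior count.

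IL1A, an alarmin that epithelial cells keep as an active precursor, had levels of 0.33 and 1.13 in WT free, 0.43 and 1.46 in WT mono, and 0.41 and 0.43 in WT poly. In CBFB_KO they were 1.52 and 3.51 in free, 2.13 and 3.07 in mono, and 1.48 and 1.32 in poly. IL1B, the secreted form that needs cleavage by caspase-1, had levels of 0.31 and 0.95 in WT free, 0.39 and 0.50 in WT mono, and 0.79 and 0.56 in WT poly. In CBFB_KO they were 1.66 and 0.99 in free, 1.25 and 1.27 in mono, and 2.71 and 3.01 in poly. For both interleukins every CBFB_KO library was above both WT libraries of the same fraction. For IL1B in free this rests on 0.99 against 0.95, and the value of 0.99 comes from 13 counts. With library size alone the log2 change in free was -0.15 for IL1A and -0.52 for IL1B, where the median of all genes was -1.57. CXCL8, the neutrophil attractant interleukin-8, was at 3.04 and 2.91 in WT free, 1.61 and 3.78 in WT mono, and 0.44 and 0.84 in WT poly. In CBFB_KO it was at 0.78 and 0.28 in free, 0.25 and 2.02 in mono, and 0.55 and 0.56 in poly. The WT poly libraries lay below WT free and WT mono, while the CBFB_KO fractions overlapped. CXCL1, a chemokine that acts through the same receptor, was at 11.2 and 5.27 in WT free, 5.83 and 7.89 in WT mono, and 3.06 and 1.90 in WT poly. In CBFB_KO it was at 3.71 and 1.53 in free, 10.1 and 14.4 in mono, and 5.58 and 5.59 in poly. WT levels were lowest in poly, and CBFB_KO levels were lowest in free. CXCL1 is close in sequence to CXCL2 and CXCL3, so part of its reads may have been divided among them.

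How the mRNAs divide between fractions in WT cells was compared first, and NFKB1 and CXCL1 passed the test, in opposite directions. NFKB1 was 6.31-fold higher in poly than in free (log2 change 2.66 ± 0.49 SE, adjusted p = 0.00438), and CXCL1 was 3.31-fold lower (-1.73 ± 0.52, adjusted p = 0.0359). CXCL8 had a larger log2 change than CXCL1, -2.21 ± 0.86, but did not pass (adjusted p = 0.0843). Thus 1 member rose and 1 fell, where 14.0% of all genes were called higher in poly and 7.99% lower. The median log2 change was -0.41 over the 10 members and 0.08 over all genes. Scaled by library size alone, the median of all genes was 0.61, and 2495 genes were called higher and 347 lower in place of 2273 and 1301.

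The other subunits and the inhibitors did not pass. RELA changed by -0.88 ± 0.52 on the log2 scale from free to poly (adjusted p = 0.234), and by -1.47 without WT replicate 1 and -0.01 without WT replicate 2. RELB changed by -0.28 ± 0.46 (adjusted p = 0.695, and 0.24 with library size alone), NFKB2 by 0.59 ± 0.55 (adjusted p = 0.464) and NFKBIA by -0.53 ± 0.51 (adjusted p = 0.473). TNFAIP3 had a fitted change of 3.07 ± 1.56 (adjusted p = 0.175). Among the cytokines, IL1A changed by -0.79 ± 0.71 (adjusted p = 0.45) and IL1B by 0.10 ± 0.61 (adjusted p = 0.931, and -0.02 with RLE size factors). Against mono in place of free, NFKB1 was again higher in poly, 6.71-fold (2.75 ± 0.49, adjusted p = 0.00482), and was the only member past the threshold. In that comparison 11.0% of all genes were called higher and 9.68% lower (1784 and 1576, or 2766 and 270 with library size alone, where the median of all genes moved from -0.04 to 0.81). RELA changed by 0.34 ± 0.51 (adjusted p = 0.67), and the other 8 lay between -2.07 and 0.90. Both comparisons share the WT poly libraries. With the replicate block within genotype, CXCL1 against free did not pass (-1.70, adjusted p = 0.05 after rounding). NFKB1 kept its call against free in all 13 alternatives and lost it against mono without WT replicate 2 (adjusted p = 0.0569). CXCL1 lost its call when any WT or CBFB_KO replicate was left out (adjusted p = 0.0695 to 0.167) and with the CBFB_KO poly pair as 1 sample (adjusted p = 0.0738), and kept it in 6 of 13 alternatives. CXCL8 passed with DESeq2 (adjusted p = 0.028) and with no filter on low counts (adjusted p = 0.0222), and TNFAIP3 passed without WT replicate 2, where its fitted change was 7.34, and with no filter.

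**Figure D3:**
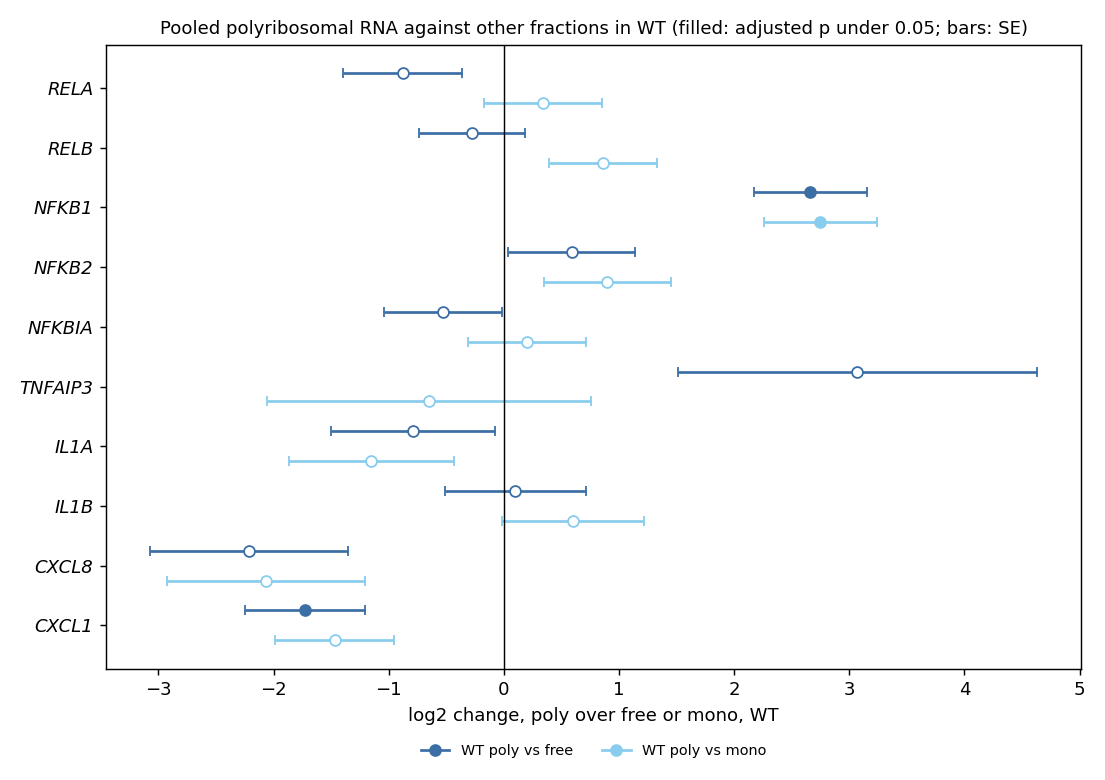
Log2 change of each mRNA in WT poly over WT free (dark blue) and over WT mono (light blue), with SE bars. Filled points have an adjusted p under 0.05: NFKB1 in both comparisons and CXCL1 against free.

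Between genotypes, members passed the test in the free fraction alone. NFKBIA was 6.17-fold lower in CBFB_KO free than in WT free (log2 change -2.63 ± 0.54 SE, adjusted p = 0.00429), RELB was 4.23-fold lower (-2.08 ± 0.50, adjusted p = 0.00858) and CXCL1 was 3.06-fold lower (-1.61 ± 0.53, adjusted p = 0.0325). NFKB1 was 3.05-fold higher (1.61 ± 0.47, adjusted p = 0.0209), although with library size alone as the scaling its change was -0.10, against a median of -1.57 over all genes. So 1 member rose and 3 fell, where 24.2% of all genes were called higher and 18.1% lower. With 10 members these counts are not set apart from that background. The median log2 change was 0.01 over the members and 0.04 over all genes.

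The remaining members did not pass in free. RELA changed by 0.69 ± 0.52 (adjusted p = 0.299), by -1.0 with library size alone, by 0.23 without WT replicate 1 and by 1.28 without WT replicate 2. NFKB2 changed by -0.66 ± 0.55 (adjusted p = 0.352) and TNFAIP3 by a fitted 3.52 ± 1.61 (adjusted p = 0.0968). IL1A changed by 1.77 ± 0.73 (adjusted p = 0.0697) and IL1B by 1.09 ± 0.63 (adjusted p = 0.178), which turned to -0.15 and -0.52 with library size alone. CXCL8 changed by -2.41 ± 0.90 (adjusted p = 0.0501). CXCL8 lies just outside the threshold on 26 and 4 counts, and it passed with DESeq2 (adjusted p = 0.018). The mitochondrial share of the CBFB_KO free libraries moves with these values, as do the summed markers in TPM, which counts mitochondrial RNA: 1550 to 1760 in WT free and 104 to 666 in CBFB_KO free for basal epithelium, and 11.0 to 11.1 and 0.29 to 1.34 for leukocytes. The part of the markers in the result was not tested. Leaving out the 37 mitochondrially encoded genes kept the 4 calls and added CXCL8 (adjusted p = 0.0497). Scaling by library size alone moved the median of all genes from 0.04 to -1.57, with 1281 genes called higher and 6461 lower in place of 3943 and 2939. The values of RELA, NFKB1, IL1A and IL1B lie above the median of all genes under both scalings. This is 1 observation, since the scaling moves all genes together.

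Part of these calls rested on the shallower library. Without CBFB_KO_free replicate 2, NFKBIA changed by -1.97 (adjusted p = 0.00601) and RELB by -1.55 (adjusted p = 0.0407), whereas NFKB1 at 1.49 (adjusted p = 0.07) and CXCL1 at -1.14 (adjusted p = 0.174) no longer passed. NFKB1 also lost its call without CBFB_KO replicate 1 (adjusted p = 0.0708) or replicate 2 (adjusted p = 0.163), RELB without CBFB_KO replicate 2 (adjusted p = 0.142), and CXCL1 without WT replicate 1 (adjusted p = 0.192) or CBFB_KO replicate 2 (adjusted p = 0.313). CXCL1 also lost its call with the CBFB_KO poly pair as 1 sample (-1.61, adjusted p = 0.0577), which left 3 members called. Over the 13 alternatives CXCL8 passed in 7, IL1A and TNFAIP3 in 4 each, and IL1B and NFKB2 in 1 each. Without WT replicate 2, IL1A (adjusted p = 0.0144), IL1B (adjusted p = 0.0215) and TNFAIP3 (adjusted p = 0.0104) passed as higher, and without CBFB_KO replicate 1 CXCL8 passed as lower (adjusted p = 0.0374). Fitting the 4 free libraries by themselves, 0 members passed, and NFKBIA came nearest (adjusted p = 0.0658).

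In the ribosome-bound fractions no member was called. edgeR called 0 of 10 in mono, where 0.147% of all genes were called in either direction, and 0 of 10 in poly, where 0.190% were called. At an unadjusted p under 0.05 there were 1 member and 712 of all 16275 genes in mono, and 3 members and 451 genes in poly, and DESeq2 also called 0 in both. RELA had log2 changes between genotypes of 0.11 ± 0.51 in mono and 0.01 ± 0.51 in poly (adjusted p = 1.0 in both). IL1A, IL1B and CXCL1 were singled out after their values were seen. In poly, IL1B was 4.23-fold higher in CBFB_KO (2.08 ± 0.63, unadjusted p = 0.00648 from edgeR, adjusted p = 0.785), IL1A 3.30-fold (1.72 ± 0.72, adjusted p = 1.0) and CXCL1 2.25-fold (1.17 ± 0.51, adjusted p = 1.0). In mono, the log2 changes were 1.49 ± 0.63 for IL1B, 1.46 ± 0.72 for IL1A and 0.84 ± 0.51 for CXCL1, all with an adjusted p of 1.0. Over 13 alternatives the adjusted p of IL1B in poly ranged from 0.0546 to 1.0. The summed leukocyte markers went the other way in poly, at 23.3 to 30.1 TPM in WT and at 11.3 to 12.3 TPM in CBFB_KO, and their part in the result was not tested. The other 6 members lay between -1.26 and 0.24 in mono and between -0.79 and -0.20 in poly.

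**Figure D4:**
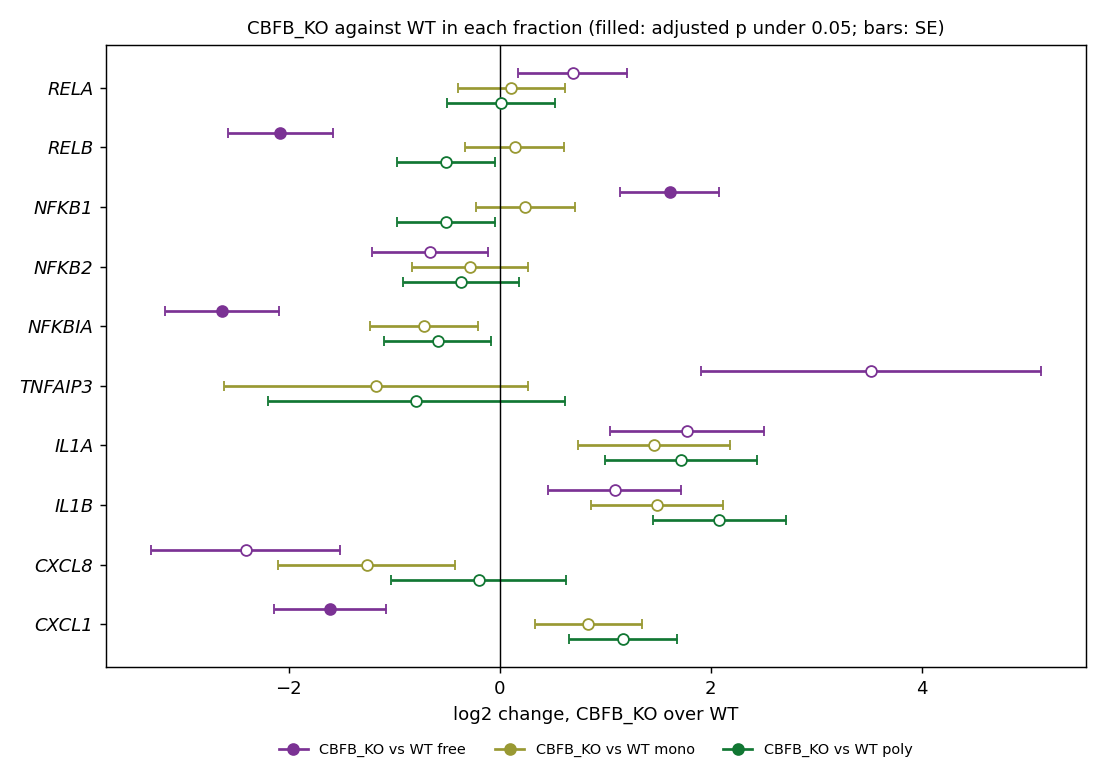
Log2 change of each mRNA in CBFB_KO over WT in the free (purple), mono (olive) and poly (green) fractions, with SE bars. Filled points have an adjusted p under 0.05 and occur in free alone: RELB, NFKBIA and CXCL1 lower, and NFKB1 higher. Scaled by library size alone, NFKB1 is at -0.10 and the median of all genes at -1.57.

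In the sequenced fractions the study judged translation by dividing the poly level of an mRNA by its free level. It called translation decreased by the size of the fall in this ratio, whereas an adjusted p was used here, so the criteria differ. For single transcripts it also used PCR of the fractions, immunoblots and in vitro translation. By the adjusted p, the poly to free ratio was lower in CBFB_KO for NFKB1 and higher for CXCL1. NFKB1 was 6.31-fold higher in poly than in free in WT and 1.45-fold higher in CBFB_KO by mean levels, a log2 change of the ratio of -2.12 ± 0.66 SE (adjusted p = 0.0443). CXCL1 went from 0.301 to 2.13, a log2 change of 2.78 ± 0.74 (adjusted p = 0.0259). Thus 1 member rose and 1 fell, where 4.10% of all genes were called higher and 14.3% lower (668 and 2332, or 3003 and 646 with library size alone). The median log2 change was 0.64 over the members and -0.10 over all genes. This ratio uses the same free libraries as the comparison of genotypes in free, so the values are not independent of it.

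RELA, the bound transcript, did not pass: its ratio was 0.542 in WT and 0.339 in CBFB_KO, a log2 change of -0.68 ± 0.73 (adjusted p = 0.514). Scaled by library size alone, the change was 1.02, while the median of all genes moved from -0.10 to 1.54. The scaling moves all genes together, so the place of RELA below the median under both scalings is 1 observation. RELA was at percentile 41.9 of the genes tested. The change was -0.08 without WT replicate 1 and -1.37 without WT replicate 2. NFKBIA changed by 2.03 ± 0.72 (adjusted p = 0.0692), RELB by 1.58 ± 0.67 (adjusted p = 0.111) and NFKB2 by 0.29 ± 0.78 (adjusted p = 0.817). TNFAIP3 had a fitted change of -4.30 ± 2.13 (adjusted p = 0.159). Among the cytokines, CXCL8 changed by 2.21 ± 1.22 (adjusted p = 0.2), IL1B by 0.99 ± 0.87 (adjusted p = 0.419) and IL1A by -0.04 ± 1.03 (adjusted p = 0.992, and 1.88 with library size alone). NFKBIA passed in 5 of 13 alternatives, among them DESeq2 (adjusted p = 0.00747), RLE size factors (adjusted p = 0.0403) and library size alone (3.49, adjusted p = 0.039). RELB passed in 2, DESeq2 (adjusted p = 0.0468) and library size alone (3.1, adjusted p = 0.039), and TNFAIP3 in 2.

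Neither call held without the libraries that stood apart. Without CBFB_KO_free replicate 2, the log2 change of the ratio was 2.31 for CXCL1 (adjusted p = 0.0681) and -2.00 for NFKB1 (adjusted p = 0.0898). With the CBFB_KO poly pair counted as 1 sample, it was 2.83 for CXCL1 (adjusted p = 0.0954) and -2.08 for NFKB1 (adjusted p = 0.171), and 760 genes were called lower and 28 higher in place of 2332 and 668. NFKB1 also lost its call without WT replicate 2, where the change was -1.03 (adjusted p = 0.198), and without CBFB_KO replicate 1 (adjusted p = 0.154) or replicate 2 (adjusted p = 0.309). CXCL1 lost its call without WT replicate 1 (adjusted p = 0.0675) or CBFB_KO replicate 2 (adjusted p = 0.265). Scaled by library size alone, which moved the median of all genes to 1.54, NFKB1 changed by -0.43 (adjusted p = 0.697) and CXCL1 by 4.30 (adjusted p = 0.0165). With the replicate block within genotype NFKB1 did not pass (-2.00, adjusted p = 0.0704), and CXCL1 kept its call (2.78, adjusted p = 0.0373). Without CBFB_KO replicate 1 NFKBIA passed (3.28, adjusted p = 0.016), and without WT replicate 2 TNFAIP3 passed, at a fitted -8.40 (adjusted p = 0.0343).

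**Figure D5:**
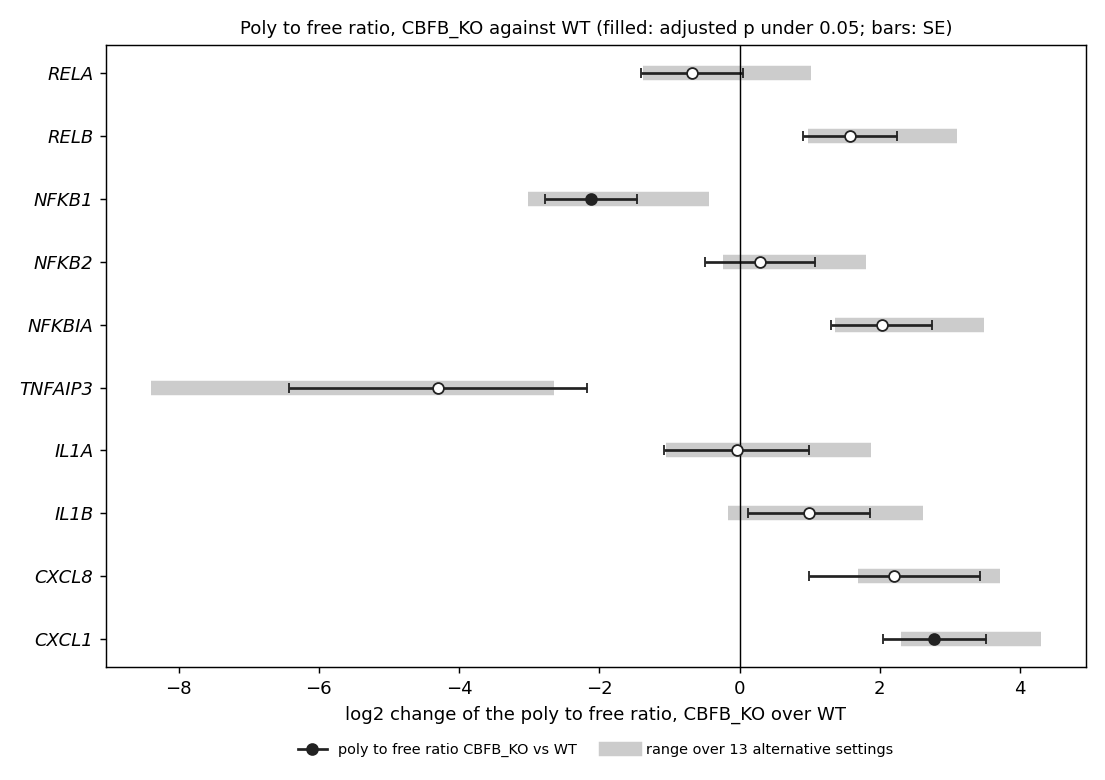
For each mRNA, how far its poly to free ratio differs between CBFB_KO and WT, as a log2 change (points, with SE bars), and its range over 13 alternative settings (grey). Filled points have an adjusted p under 0.05: NFKB1 at -2.12 and CXCL1 at 2.78, and the grey ranges of RELA, NFKB2, IL1A and IL1B cross 0.

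With mono in place of free, the ratio showed no called difference. edgeR called 0 members and 0% of all genes in either direction, with 164 genes and 0 members at an unadjusted p under 0.05, while with no filter on low counts 16 genes and 0 members were called. RELA changed by -0.10 ± 0.73 on the log2 scale (adjusted p = 1.0), and the other 9 lay between -0.75 and 1.05. The poly to mono level ratio of RELA was 1.27 in WT and 1.18 in CBFB_KO.

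Other genes of the pathway were read from 6 lists of 67 genes, of which 65 were matched and 59 tested. In the poly to free ratio, 9 of the 59 were lower and 1 was higher in CBFB_KO, and 7 and 1 of 60 without CBFB_KO_free replicate 2, 4 and 0 of 60 with the CBFB_KO poly pair as 1 sample, and 4 and 7 of 59 with library size alone. Over all genes 14.3% were called lower and 4.10% higher, near the shares of the 59. None of 6 other NF-kB and IkB family genes was called, and 2 of 12 kinase genes fell: TAB2 (-4.87 ± 0.89, adjusted p = 0.0044) and TAB3 (-4.94 ± 1.26, adjusted p = 0.0217), adaptors that bring the kinase TAK1 to ubiquitin chains. Of 10 receptors and adaptors 1 fell, IL1RAP (-6.25 ± 1.10, adjusted p = 0.00377), the co-receptor for interleukin-1. Of 10 ubiquitin regulators 1 fell, TAX1BP1 (-2.62 ± 0.75, adjusted p = 0.0342), a partner of A20. Of 11 other target genes tested 1 rose, CXCL3 (4.09 ± 1.13, adjusted p = 0.0292), which may share reads with CXCL1. The list of AU-rich element binding proteins had 5 of 10 lower, and 2 of 10 either with the CBFB_KO poly pair as 1 sample or with library size alone, and it was led by ZFP36L1 (-6.05 ± 0.79, adjusted p = 0.000768), which promotes decay of such mRNAs, and TIAL1 (-5.51 ± 0.67, adjusted p = 0.000559), which restrains their translation. Without CBFB_KO_free replicate 2, TAB3 (adjusted p = 0.0631) and TAX1BP1 (adjusted p = 0.115) no longer passed. With the CBFB_KO poly pair as 1 sample, TAB3 (adjusted p = 0.0917), TAX1BP1 (adjusted p = 0.152) and CXCL3 (adjusted p = 0.102) did not pass.

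In the free fraction, CBFB_KO against WT, 19 of the 59 list genes rose and 8 fell, where 24.2% of all genes were called higher and 18.1% lower. The counts were 11 and 4 of 60 without CBFB_KO_free replicate 2, 16 and 5 of 60 with the CBFB_KO poly pair as 1 sample, and 7 and 26 of 59 with library size alone. The AU-rich element binding proteins had 7 of 10 higher and 1 lower, with a median log2 change of 2.28 against 0.04 over all genes, and with library size alone they had 3 higher and 3 lower. The kinases had 3 higher and 0 lower, the receptors and adaptors 4 higher and 1 lower, the ubiquitin regulators 3 higher and 2 lower, the other target genes 1 higher and 3 lower, and the other NF-kB and IkB family genes 1 higher and 1 lower. In WT, poly against free, 2 of the 59 were higher and 10 lower, where 14.0% of all genes were called higher and 7.99% lower. The counts were 7 and 10 of 60 without CBFB_KO_free replicate 2, and 4 and 4 of 59 with library size alone. The other NF-kB and IkB family had 3 of 6 lower and the other target genes 4 of 11 lower (2 of 6 and 1 of 11 with library size alone), with median log2 changes of -1.36 and -1.33 against 0.08 over all genes. The AU-rich element binding proteins had 2 higher and 2 lower, the ubiquitin regulators 1 lower, and the kinases, receptors and adaptors 0.

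The genes most like RELA over the 12 libraries, by Pearson correlation of log2 CPM, were ETV6 (0.971), ARL15 (0.965), UBE2Z (0.963), NUMBL (0.959) and CRTC2 (0.958). Those most like CXCL8 were RRAS2 (0.94), HSD17B7P2 (0.918), KCNIP2-AS1 (0.91), SERPINA6 (0.9) and PAN3-AS1 (0.898). These are descriptions over 12 points that share 6 conditions, and the CXCL8 values rest on as few as 4 counts.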

How the data were processed

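Per the submitters' notes the authors used Trimmomatic, STAR and RSEM on build hg19; their versions and the annotation are not given in the sources used here. The authors deposited expected counts (RSEM estimates, not normalized) and TPM per gene for each of 12 libraries. The deposited effective lengths served to scale levels. Symbols were matched for 50902 of 56632 identifiers. Expected counts were rounded and fitted with edgeR 4.0.16 (R 4.3.3), by its quasi-likelihood test on 6 condition means over all libraries, with TMM and filterByExpr, which kept 16275 genes. Genes passed at an adjusted p (Benjamini-Hochberg, all genes tested) under 0.05. The script was tested on simulated data, which held neither the mitochondrial share of CBFB_KO free nor the closeness of the CBFB_KO poly pair. Totals were 41050325 to 63886726 counts, so 3 counts are 4.7e-06% to 7.31e-06% of a library (counting error only). DESeq2 1.42.0, other scalings, filters, replicate blocks and left-out libraries were alternatives.

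The members and lists were chosen with earlier results of these data known. All 10 members were named in 3 comparisons (poly against free in WT, free between genotypes, and the poly to free ratio), and RELA and called members in the others. In the lists, up to 2 genes per direction were named. SOD2 and IKBKE of the pathway lists and the marker PECAM1 had no matching identifier and were not used here. Deposited FPKM was not used. The value of 1 leukocyte marker is not reported here.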

Additional observations from a re-analysis of the deposited data

Results flagged for a closer look

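The poly to free ratio differed between genotypes by the interaction term of edgeR's quasi-likelihood fit for 2 of the 10 mRNAs. The log2 change in CBFB_KO over WT was -2.12 ± 0.66 SE for NFKB1 (adjusted p = 0.0443), with higher levels in both CBFB_KO free libraries than in both WT free libraries. With library size alone its log2 change in free was -0.10, where the median of all genes was -1.57. The log2 change of the ratio was 2.78 ± 0.74 SE for CXCL1 (adjusted p = 0.0259), with lower levels in both CBFB_KO free libraries, on 75 and 13 counts. Without CBFB_KO_free replicate 2 the log2 change of the ratio was 2.31 for CXCL1 and -2.0 for NFKB1. As given above, neither call held there or with the CBFB_KO poly pair counted as 1 sample. The background was 14.3% of genes called lower and 4.10% called higher. Conditions of 2 libraries were too small to look for a library far from the others.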

How the results depend on the processing

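Across 14 alternatives, 41 results on members gave 533 values, of which 444 kept direction and side of the threshold, 31 lost and 30 gained a call, and 28 changed sign. The counts of members called between genotypes in mono, in poly, and for the poly to mono ratio stayed at 0. Members called in WT poly against free numbered 2, and 1 with library size alone, with the replicate block within genotype and with the CBFB_KO poly pair as 1 sample, 4 with no filter on low counts, and 1 to 2 with libraries left out. In WT poly against mono the count was 1, and 2 with no filter or DESeq2, and 0 to 2 with libraries left out. For CBFB_KO against WT free it was 4, and 7 with no filter, DESeq2 or the replicate block, 0 with the libraries of that fraction alone, and 1 to 7 with libraries left out. For the poly to free ratio it was 2, and 4 with no filter or DESeq2, 1 with the replicate block within genotype, 0 with the CBFB_KO poly pair as 1 sample, and 0 to 2 with libraries left out. The cause was not tested.

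No sign change concerned a result past the threshold except NFKB1 in free, at -0.10 with library size alone. That scaling also gave RELB 0.24 in WT poly against free, RELA -1.0, IL1A -0.15 and IL1B -0.52 in free, and RELA 1.02 and IL1A 1.88 for the poly to free ratio. The medians of all genes under it were 0.61 in WT poly against free, -1.57 in free and 1.54 for that ratio. RLE size factors and DESeq2 gave IL1B -0.02 in WT poly against free and RELA -0.01 in CBFB_KO poly against WT poly, as did that fraction alone for RELA. With libraries left out, WT poly against free ranged from -0.63 to 0.15 for RELB, -1.36 to 0.41 for IL1A and -0.75 to 1.41 for IL1B. The poly to free ratio ranged from -0.23 to 1.14 for NFKB2, -1.05 to 0.74 for IL1A and -0.16 to 1.83 for IL1B. RELA ranged from -0.43 to 0.93 in mono, -0.09 to 0.15 in poly, and -0.77 to 0.34 for the poly to mono ratio. A lone library left in a condition was assumed to vary like the others.

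Same-numbered libraries of the 2 genotypes deviated together with r = 0.06 in free, 0.20 in mono and 0.02 in poly. Within a genotype, free and poly did so with r = 0.05 in WT and 0.01 in CBFB_KO. For mono and poly, r was 0.18 in WT and 0 in CBFB_KO. The main fit did not take the numbers as pairs, and replicate blocks were fitted as alternatives. With the replicate block the members called in free rose from 4 to 7. Leaving out the mitochondrially encoded genes or CBFB_KO_free replicate 2 was chosen after seeing the data. The 5247878 counts on other genes in CBFB_KO_free replicate 2 limit every value that uses it.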
